A study of Mus musculus with 6 samples.

Results

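Microglia are the resident macrophages of the brain, and the 9 genes described here, *Csf1r*, *Cx3cr1*, *P2ry12*, *Tmem119*, *C1qa*, *C1qb*, *C1qc*, *Aif1* and *Trem2*, are widely used to recognize them. They were taken by name and found in the table of normalized read counts through their Ensembl identifiers in GENCODE release M21. All 9 were present among the 18254 genes of the table, and all 9 passed the filter on low values and were tested among 16714 genes. The mPFC of male mice aged 10 to 12 weeks in a C57BL/6J background was compared between *Shank3* TG mice, which carry an *EGFP-Shank3* transgene, and their WT littermates. There were 3 libraries of each genotype (named TG and WT with the replicate numbers 1, 2 and 3), each from the pooled tissue of 2 mice of that genotype, so that a replicate was a pool. The tissue was not sorted, so fewer microglia and less of an RNA per microglial cell cannot be told apart in any value below.

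The 9 genes stand for different parts of microglial biology. CSF1R is the receptor that keeps microglia alive and is bound by CSF1 and IL-34, CX3CR1 receives the neuronal ligand fractalkine, and P2RY12 senses nucleotides and guides the movement of microglial processes. C1QA, C1QB and C1QC are the chains of C1q, which starts the classical complement cascade and tags synapses for removal during development, and in the brain they are made mainly by microglia. TREM2 is a lipid-sensing receptor that signals through the adaptor TYROBP, AIF1 (IBA1) binds calcium and actin, and TMEM119 is a membrane protein that separates microglia from most other macrophages.

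None of the 9 genes was found to differ between *Shank3* TG and WT. The largest estimates were a log2 change of 0.15 for *Trem2* and of -0.18 for *Aif1*, and the other 7 lay between -0.081 and 0.040. The median over the 9 genes was -0.0027, beside -0.0037 over all tested genes. *Shank3* itself, the gene overexpressed in these mice, had normalized counts of 17470, 19004 and 16310 in TG against 8374, 8173 and 6791 in WT, with no overlap (log2 change 1.18, adjusted limma p-value 0.0643, 0.000437 when replicate number was blocked). In limma's test, which reads log2(normalized count + 1) and adjusts p-values over all tested genes by the Benjamini-Hochberg method, the number of members with an adjusted p-value under 0.05 was 0 of 9, as it was for 0% of the tested genes. No member had an unadjusted p-value under 0.05, against 2.01% of all tested genes (336 genes), and no member separated the genotypes without overlap, against 6.02% of all tested genes. With the replicate number as a block, no member had an unadjusted p-value under 0.05 either, against 4.98% of all tested genes, and 1 gene in all, *Shank3*, had an adjusted p-value under 0.05. Each of the 9 members had an adjusted limma p-value of 1, which became 0.996 under the block.

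**Figure D1:**
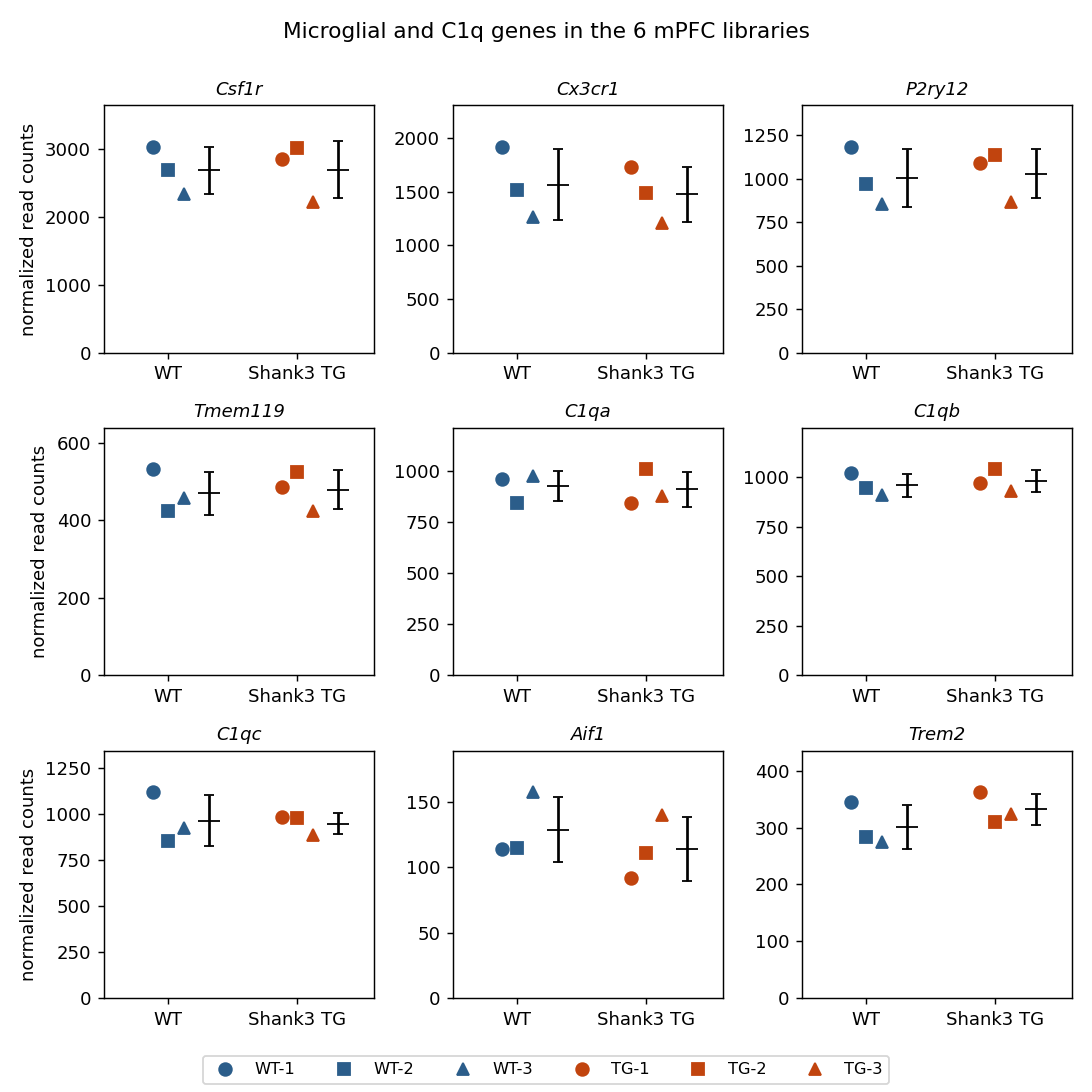
Normalized read counts (y axis, from 0) of the 9 microglial and C1q genes in the 3 WT and 3 *Shank3* TG libraries, 1 panel per gene, with the mean and SD of each genotype in black and the marker shape giving the replicate number. The genotypes overlap in every panel, and the libraries numbered 3 are the lowest of their genotype for *Csf1r*, *Cx3cr1*, *P2ry12* and *C1qb* and the highest for *Aif1*.

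Of the receptors, *Csf1r* (ENSMUSG00000024621, chromosome 18 from 61100598 to 61132149 in GRCm38, plus strand) had 2858, 3013 and 2218 normalized counts in TG-1, TG-2 and TG-3 and 3038, 2698 and 2343 in WT-1, WT-2 and WT-3. The 2 lowest libraries were those numbered 3, 1 of each genotype, and the groups overlapped almost completely. The means were 2696 ± 422 (SD, n = 3) for TG and 2693 ± 348 for WT, giving a log2 change of -0.0027 (standard error 0.14) with a 95% interval from -0.33 to 0.32. *Cx3cr1* (ENSMUSG00000052336, chromosome 9 from 119901616 to 120069879, minus strand) had normalized counts of 1727, 1491 and 1210 in the TG libraries and of 1922, 1515 and 1268 in the WT libraries. Each TG library was below the WT library of the same number, by less than the distance between libraries of 1 genotype. The log2 change was -0.081 (standard error 0.18), with a 95% interval from -0.49 to 0.33. The annotated span of *Cx3cr1* overlaps *Gorasp1*, *Csrnp1* and *Xirp1* on the same strand, and whether their exons overlap was not tested.

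*P2ry12* (ENSMUSG00000036353, chromosome 3 from 59216272 to 59262871, minus strand) overlaps *Med12l* on the opposite strand, and had normalized counts of 1089, 1135 and 867 in the TG libraries and of 1185, 972 and 856 in the WT libraries. As for *Csf1r*, the libraries numbered 3 were the lowest in both genotypes. Its log2 change was 0.040 (standard error 0.15), with a 95% interval from -0.30 to 0.38. *Tmem119* (ENSMUSG00000054675, chromosome 5 from 113793729 to 113800516, minus strand) had normalized counts of 487, 525 and 425 in the TG libraries and of 532, 424 and 457 in the WT libraries. Its lowest values, in WT-2 and TG-3, came from different genotypes and different replicate numbers. The log2 change of *Tmem119* was 0.026 (standard error 0.12), with a 95% interval from -0.26 to 0.31.

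The genes of the 3 C1q chains lie next to each other on the minus strand of chromosome 4, *C1qb* (ENSMUSG00000036905) from 136880129 to 136886187, *C1qc* (ENSMUSG00000036896) from 136889804 to 136893065 and *C1qa* (ENSMUSG00000036887) from 136895917 to 136898803. *C1qa* had normalized counts of 840, 1007 and 878 in the TG libraries and of 959, 842 and 974 in the WT libraries. *C1qb* had values of 973, 1040 and 929.9 in TG against 1024, 947 and 910.2 in WT. *C1qc* had values of 984, 977 and 885 in TG against 1121, 852 and 923 in WT. TG-2 was the highest library for *C1qa* and *C1qb* and WT-1 for *C1qc*, and the genotypes overlapped for all 3 genes. The log2 changes were -0.027 for *C1qa* (95% interval -0.26 to 0.21), 0.031 for *C1qb* (-0.17 to 0.23) and -0.017 for *C1qc* (-0.28 to 0.25). *C1qb* had the narrowest interval of the 9 genes, which on the linear scale runs from 0.890-fold to 1.17-fold of WT.

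The proportions of the C1q genes to each other were compared within libraries. The ratio of *C1qa* to *C1qb* normalized counts within a library lay between 0.863 and 1.07, with 0.925 ± 0.0549 (SD, n = 3) for TG and 0.965 ± 0.0940 in WT. The ratio of *C1qc* to *C1qb* lay between 0.899 and 1.09, with 0.967 ± 0.0382 in *Shank3* TG and 1.00 ± 0.0984 in WT. Both ratios differed between the genotypes by less than 1 SD of the WT libraries. The C1q genes were also compared as a group with the other 6 members, by the mean log2 level of the 3 genes minus that of the 6 in each library. This difference took values of 0.48, 0.58 and 0.59 in TG against 0.51, 0.51 and 0.62 in WT, so that the genotype means of 0.55 and 0.55 differed by 0.0038, against a spread between replicates of 0.063. The difference was 0.041 without WT-3, 0.039 without TG-1, and between -0.015 and -0.012 when TG-2, TG-3, WT-1 or WT-2 was left out.

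The RefSeq table of promoters for GRCm38.p6 (250 bases before to 50 bases after a start site) held windows for 6 of the 9 genes, and these were searched on both strands for AGGAAGT, a form of the GGAA core that PU.1, the macrophage transcription factor encoded by *Spi1*, and its ETS relatives bind. The letters were present in the windows of 3 of the 6 genes, *P2ry12*, *C1qb* and *C1qc*, against 9.35% of all 32851 windows, and were not found in these windows of *Cx3cr1*, *Aif1* and *Trem2*. The stretches of 30 bases around the matches are shown for the pair of C1q genes and for *P2ry12*, 5′ to 3′ on the strand of the gene, with the match in capitals (for both C1q genes it is on the opposite strand and reads ACTTCCT). They end upstream of the start site, at chr4:136886235-136886264 for *C1qb*, chr4:136893091-136893120 for *C1qc* and chr3:59263019-59263048 for *P2ry12*. The strand is that of the table. For *P2ry12* it could not be checked against a GENCODE transcript, since the RefSeq start site lies upstream of the GENCODE one. No binding was measured, and the match is a description of the letters.
C1qb: caggacctgaaACTTCCTgagggcagcagg
C1qc: ggacggcagacACTTCCTcattttggcaca
P2ry12: agctaacaagaAGGAAGTtccccagtgaca

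*Aif1* and *Trem2* had the lowest normalized counts of the members, not corrected for length. *Aif1* (ENSMUSG00000024397, chromosome 17 from 35170991 to 35176068, minus strand) had normalized counts of 91.7, 111 and 140 in the TG libraries and of 114, 115 and 158 in the WT libraries. It was lower in TG than in WT for every replicate number, while the groups overlapped and the libraries numbered 3 were the 2 highest. Its log2 change of -0.18 (standard error 0.21) had the widest interval of the 9 genes, from -0.66 to 0.30. *Trem2* (ENSMUSG00000023992, chromosome 17 from 48346401 to 48354147, plus strand) had normalized counts of 363, 310 and 324 in the TG libraries and of 345, 283 and 274 in the WT libraries. It was higher in TG than in WT for every replicate number, and only WT-1 lay above any TG library. The means were 332 ± 27.2 (SD, n = 3) for TG and 301 ± 38.9 for WT, giving a log2 change of 0.15 (standard error 0.13) with a 95% interval from -0.14 to 0.44. Its unadjusted p-value in limma's test, 0.275, was the smallest of the 9 genes, and it was 0.147 with the replicate number as a block.

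**Figure D2:**
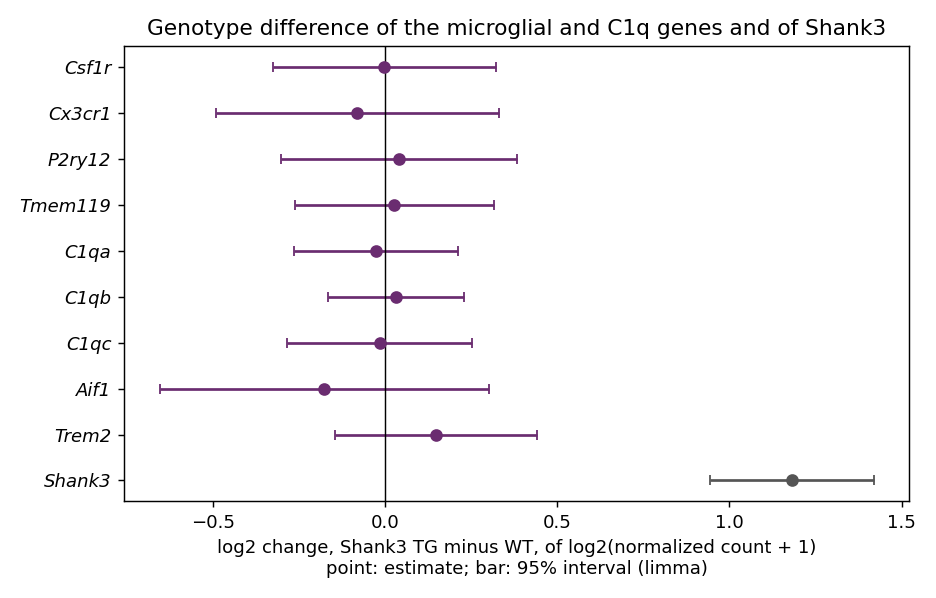
Log2 change of each microglial or C1q gene and of *Shank3* (x axis, *Shank3* TG minus WT, on log2(normalized count + 1)), with points for limma's estimates and bars for their 95% intervals. The intervals of all 9 genes include 0 and end between -0.66 and 0.44, while that of *Shank3* runs from 0.94 to 1.42.

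The order of the levels was read per kilobase of annotated exon, the scale on which genes of different length can be compared. Over the 6 libraries, *C1qb* (892 ± 47.7 normalized counts per kilobase, SD, n = 6) and *C1qa* (881 ± 69.5) were the highest and did not differ beyond their spread, with *C1qb* above *C1qa* in 4 of 6 libraries. *C1qc* followed with 495 ± 49.4, overlapping *Csf1r* with 467 ± 59.9, and *P2ry12* (399.6 ± 54.9) and *Cx3cr1* (338 ± 60.0) came next. *Csf1r* was above *P2ry12*, and *P2ry12* above *Cx3cr1*, in 6 of 6 libraries although their ranges overlapped. *Tmem119* had 205 ± 20.6 per kilobase, and *Aif1* (79.3 ± 15.3) and *Trem2* (64.0 ± 7.0) were the lowest and overlapped. This order depends on which transcripts are counted in the length. With the principal transcripts alone, *C1qc* had 795 ± 79.2 per kilobase, overlapping the range of *C1qa*, and *Trem2* had 291 ± 31.8, above *Tmem119* and *Aif1* in every library, because its principal transcript has 1088 of the 4946 annotated exon bases.

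For each of the 9 genes, the range over the pools of either genotype was wider than the difference between the genotype means. The 9 genes summed to normalized counts of 9414, 9609 and 7876 in the TG libraries and of 10239, 8647 and 8162 in the WT libraries, and thus to between 0.0270% and 0.0361% of a library. WT-1 was the highest library for 5 of the 9 genes, and for 10 of 23 other microglial genes. At replicate number 1, 8 of the 9 genes were lower in *Shank3* TG, with log2 differences from -0.31 to 0.070. At replicate number 2, 7 of them were higher, from -0.053 to 0.31. At replicate number 3, 6 were lower, from -0.17 to 0.24. The count of members with a lower mean in *Shank3* TG, 5 of 9, therefore turned on single pools: it was 1 without WT-1, 2 without TG-3, 8 without TG-2 and 2 without both libraries numbered 3.

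The libraries numbered 3 stood apart from the other 4 across the transcriptome, and both lay below the other 4 for 20.6% of all tested genes and above them for 20.3%. Among the members, *Csf1r*, *Cx3cr1*, *P2ry12* and *C1qb* were below, 4 of 9, and *Aif1* was above. For *Cx3cr1* the library numbered 3 was lower than the mean of numbers 1 and 2. The log2 difference was -0.41 in *Shank3* TG and -0.43 in WT. In the same order, it was -0.40 and -0.29 for *Csf1r* and -0.36 and -0.33 for *P2ry12*. For *Aif1* the library numbered 3 was higher by 0.47 and 0.46. The log2 differences lay between -0.15 and 0.12 for the C1q genes, and were -0.048 and -0.19 for *Trem2* and -0.25 and -0.055 for *Tmem119*. What set these libraries apart was not tested. Without both of them, no member had an adjusted limma p-value under 0.05.

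**Figure D3:**
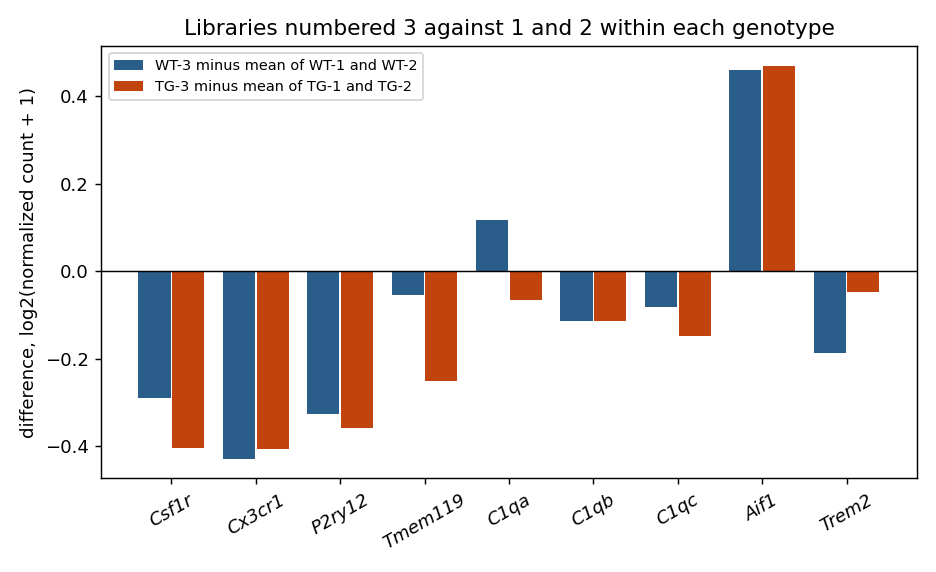
Difference in log2(normalized count + 1) (y axis) between the library numbered 3 and the mean of the libraries numbered 1 and 2, in WT and in *Shank3* TG, for each of the 9 genes. *Cx3cr1*, *Csf1r* and *P2ry12* are lower and *Aif1* higher in the libraries numbered 3 of both genotypes, and the C1q genes differ by at most 0.15.

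The other genes of microglia were listed by name, and which cells of the unsorted tissue their transcripts came from was not tested. Of 23 other microglial genes, 12 were higher and 11 lower in *Shank3* TG, with a median log2 change of 0.013 (-0.037 without WT-2 and 0.072 without WT-1). None of them had an unadjusted limma p-value under 0.05, and none separated the genotypes without overlap. Among the most abundant were *Ctss*, a cathepsin (log2 change -0.049, 95% interval -0.26 to 0.16), *Mertk*, a receptor for the engulfment of dying cells (-0.028, -0.33 to 0.27), and *Laptm5*, a lysosomal membrane protein (0.044, -0.20 to 0.29). *Adgre1*, which encodes F4/80 and was picked out after its values had been seen, had the largest change of the list, with normalized counts of 191, 185 and 153 in the TG libraries and of 168, 142 and 113 in the WT libraries. Under the replicate block 1 of the 23 genes, *Adgre1*, passed an unadjusted threshold of 0.05, against 4.98% of all tested genes (0.0261, against 0.0984 without the block in limma's test), a log2 change of 0.33. Of 6 transcription factor genes of microglia, 2 were higher and 4 lower, with a median of -0.038 (-0.12 without WT-2 and 0.0023 without TG-1). *Spi1* had a log2 change of -0.022 (95% interval -0.45 to 0.40) and *Irf8*, another factor of the lineage, of -0.10 (-0.47 to 0.27). *Sall1*, a factor that marks microglia among macrophages, had a log2 change of 0.032, and no unadjusted limma p-value of the 6 genes was under 0.05.

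The ligands and adaptors of the member receptors were counted in the same way, with 6 of 11 genes higher, 5 lower, a median log2 change of 0.0030 (-0.058 without TG-1 and 0.044 without TG-3) and no unadjusted limma p-value under 0.05. *Il34*, the CSF1R ligand made mainly by neurons, had normalized counts of 1469, 1451 and 1267 in the TG libraries and of 1375, 1357 and 1278 in the WT libraries. *Csf1*, the other ligand, had values of 492, 457 and 641 in TG against 543, 452 and 788 in WT, and was highest in the libraries numbered 3. Their log2 changes were 0.060 (95% interval -0.14 to 0.26) for *Il34* and -0.14 (-0.64 to 0.36) for *Csf1*. Per kilobase of exon, *Il34* was the more abundant ligand in every library, with 647 to 749.7 normalized counts per kilobase against 85.6 to 149 for *Csf1*. *Cx3cl1*, which encodes fractalkine, had a log2 change of 0.045 (-0.15 to 0.24) and between 5368 and 6348 normalized counts per kilobase, above its receptor *Cx3cr1* with 268 to 427. *Tyrobp*, the adaptor of TREM2, had normalized counts of 304, 289 and 262 in the TG libraries and of 305, 233 and 339 in the WT libraries. The ratio of *Trem2* to *Tyrobp* normalized counts was 1.17 ± 0.0851 (SD, n = 3) for TG and 1.05 ± 0.215 in WT, where WT-3 had the lowest ratio, 0.809. *Hcst*, an adaptor related to *Tyrobp*, was near the lower limit of the filter, with at most 9.03 normalized counts in a library. *Apoe*, which encodes a ligand of TREM2 and is made mainly by astrocytes, had a log2 change of 0.0035 (-0.44 to 0.45), and *Adam10*, a protease that sheds TREM2, of 0.0030 (-0.24 to 0.24).

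Of 24 other complement genes, 21 were tested, 10 with a higher and 11 with a lower mean in TG, and with a median log2 change of -0.0023 (-0.078 without WT-2 and 0.021 without TG-3). *Clu*, a soluble inhibitor of the late cascade, *Susd4* and *Csmd1*, membrane inhibitors expressed by neurons, had log2 changes of -0.077, 0.061 and 0.0082. The unadjusted limma p-value was under 0.05 for 1 of the 21 genes, against 2.01% of all tested genes. This was *C3*, the central component downstream of C1q, whose adjusted p-value was 1. *C3* was scarce, with normalized counts of 15.7, 10.8 and 21.8 in the TG libraries and of 4.98, 7.92 and 8.09 in the WT libraries. The genotypes did not overlap, and the log2 change was 1.07 (standard error 0.40, unadjusted p = 0.0293 in limma's test). *Serping1*, the inhibitor of the C1 proteases, and *C1ra*, which encodes the protease C1r, also separated without overlap and were picked out after their values had been seen, which makes 3 of 21 genes against 6.02% of all tested genes. *Serping1* had a log2 change of 0.23 (95% interval -0.064 to 0.53) and *C1ra* of -0.31 (-0.70 to 0.088).

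Genes listed as those of activated microglia were counted separately. The tissue was not sorted, and which cells these transcripts came from was not tested. Of 18 genes, 14 were tested, 9 with a higher and 5 with a lower mean in TG, the median log2 change was 0.13 (0.022 without WT-2, 0.051 without TG-1, 0.086 without TG-3 and 0.061 with a filter at a mean of 50), and none had an unadjusted limma p-value under 0.05. The most abundant were *Axl* (log2 change 0.087), *Lpl* (-0.077), *Cd68* (0.035) and *Lyz2* (0.23). *Itgax*, which encodes CD11c and was picked out after its values had been seen, separated the genotypes without overlap, 1 of 14 tested genes of the list against 6.02% of all tested genes, with normalized counts of 10.2, 14.0 and 12.3 in the TG libraries and of 5.62, 7.74 and 6.09 in the WT libraries, a log2 change of 0.82 (95% interval -0.027 to 1.66).

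**Figure D4:**
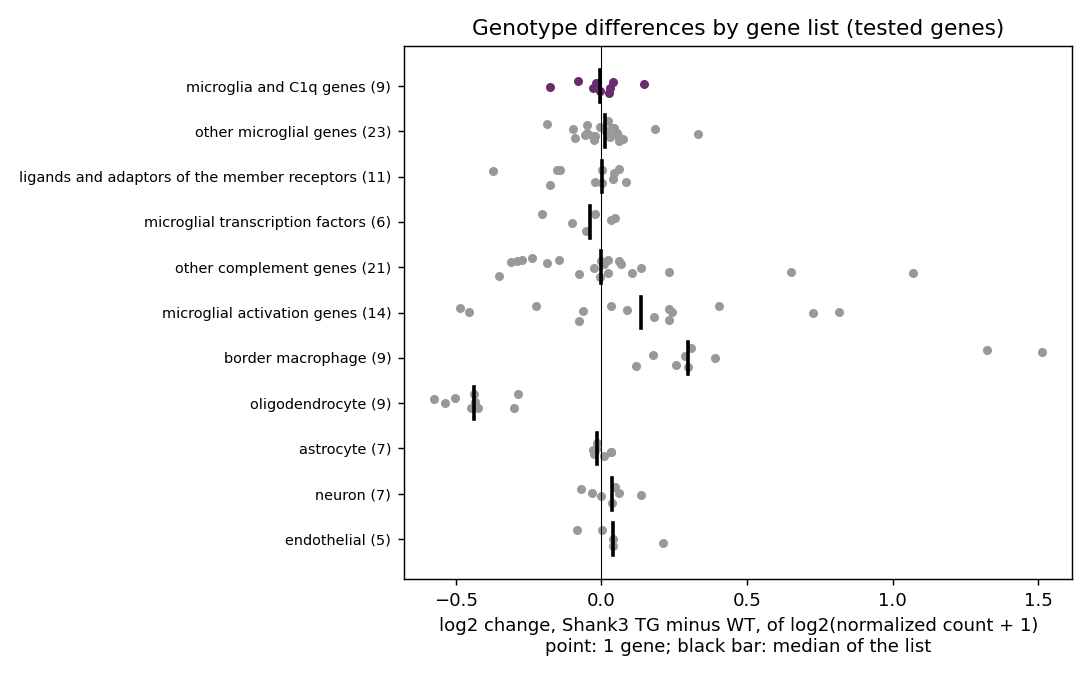
Log2 change between *Shank3* TG and WT (x axis, on log2(normalized count + 1)) of the tested genes of each list, with 1 point per gene, the median as a black bar and the number of genes in brackets. The medians of the 9 microglial and C1q genes (-0.0027) and of the 23 other microglial genes (0.013) lie close to 0, those of the oligodendrocyte genes at -0.44 and of the border macrophage genes at 0.30.

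Macrophages at the borders of the brain share *Csf1r*, *Aif1* and the C1q genes with microglia. Their own markers were all detected, with 1251, 1432 and 1124 normalized counts summed over 9 genes in *Shank3* TG and 1138, 1041 and 878 in WT. All 9 were higher in *Shank3* TG, with a median log2 change of 0.30, and the part of these cells in the levels of the 9 microglial genes was not tested. *Mrc1*, the mannose receptor, had a log2 change of 0.26 (95% interval -0.14 to 0.65) and *Stab1*, a scavenger receptor, of 0.30 (-0.058 to 0.66). *F13a1* and *Cd163* had log2 changes of 0.18 and 0.31. The unadjusted limma p-value was under 0.05 for 2 of the 9 genes, against 2.01% of all tested genes. These were *Ms4a7* (0.0296) and *Cd209f* (0.0293), with adjusted p-values of 1. *Ms4a7* had normalized counts of 50.3, 36.4 and 61.4 in the TG libraries and of 18.7, 36.4 and 6.02 in the WT libraries, so that TG-2 and WT-2 hardly differed. *Cd209f* had values of 7.27, 12.9 and 18.5 in TG against 4.21, 6.36 and 2.73 in WT.

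Markers of other cells of the tissue were read in the same libraries. All 9 oligodendrocyte genes were lower in *Shank3* TG, with a median log2 change of -0.44, and for 8 of the 9 the genotypes did not overlap (6.02% of all tested genes) and for 8 of the 9 the unadjusted limma p-value was under 0.05 (2.01% of all tested genes). The medians were -0.015 for 7 astrocyte genes, 0.036 for 7 neuron genes and 0.040 for 5 endothelial genes. Single libraries moved them, the astrocyte median from -0.063 without TG-2 to 0.079 without TG-3, the neuron median from 0.0026 without TG-3 to 0.13 without WT-3, and the endothelial median from -0.0995 without WT-2 to 0.10 without WT-1. The difference between the microglial and the oligodendrocyte genes was not tested as such.

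By likeness of their profile over the 6 libraries, genes near to the mean of the 9 members, among 12337 other genes averaging 100 normalized counts or more, were *Smdt1*, *Fbl*, *Prkcsh* and *Abcb1a*. Likeness was the root mean square difference of the log2 deviations from each gene's own mean, and it lay between 0.018 and 0.022 for these 4 genes. These genes were selected for a small distance. The distance of the members from their own mean ran from 0.044 for *C1qb* to 0.31 for *Aif1*. The mean profile of the members was highest in WT-1, 0.15 above its mean on the log2 scale, and lowest in TG-3, at -0.10.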

How the data were processed

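RNA-seq of the mPFC of *Shank3* TG and WT mice gave 6 libraries (TruSeq Stranded mRNA). Per the labels and the study's methods, the authors ran Salmon 0.9.1 on GRCm38 with GC bias correction, imported gene-level values with tximport in R 3.6.0 and divided them by size factors in DESeq2 1.19.11, and the deposited signal is these normalized read counts, for 18254 genes. The release of the annotation and the strand setting are not given in the sources used here. Normalized counts summed to between 28363967 and 29447717 per library. Whole multiples of a common step, within 0.02, made up no more than 23.1% of the low values, so reads could not be recovered and counting intervals were not computed.

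Names and positions came from GENCODE M21 (18231 genes found). Genes averaging 5 normalized counts or more were fitted in limma 3.58.1 (R 4.3.3) on log2(normalized count + 1), with genotype alone and a mean-variance trend, two-sided, with Benjamini-Hochberg adjustment over the 16714 genes. The fit was run on simulated data as a check of its estimated changes alone. The simulated noise was independent between libraries, so shifts shared by a replicate number were not covered. Same-numbered libraries deviated together from their genotype means (r from 0.302 to 0.616 across genes, at most 0.266 for other combinations), so a second, blocked model used the replicate number as a factor (the replicate block). Levels per kilobase used the union of annotated exons.

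The members and lists were chosen with earlier results of these data known. Named were the 9 members, *Shank3*, *Csf1*, *Il34*, *Cx3cl1*, *Tyrobp*, *Hcst*, *Spi1*, *Irf8*, up to 4 of the most abundant genes of a list, list genes with an unadjusted p-value under 0.05 and the 5 genes nearest in profile. Some genes that this rule names are not reported here. Each library was a pool of 2 mice of 1 genotype, and the study's methods speak of pairs of WT and TG samples without saying what a pair shared. P-values set the genotype difference against the spread between pools, as estimated by limma with a trend over all genes. Without the block, this spread includes shifts that same-numbered libraries shared. Results were recomputed with pseudocounts of 0.1 and 5, with no filter or one at a mean of 50, upper quartile rescaling, quantile normalization, no trend, the robust option, the replicate block, z-scores divided by their width (interquartile range over 1.349, an empirical null), each library left out and both libraries numbered 3 left out. The principal transcript as the length was added after seeing the data.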

Additional observations from a re-analysis of the deposited data

How the results depend on the processing

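Recomputing the 9 members under 17 alternatives gave 153 values, and none reached an adjusted limma p-value under 0.05 (lowest 0.855, *Trem2* with the empirical null). *Aif1* and *Trem2* kept their direction under all 17, but single libraries moved their size. *Aif1* ranged from -0.33 without TG-3 to -0.024 without WT-3 (-0.031 without TG-1), and *Trem2* from 0.084 without TG-1 (0.086 without WT-3) to 0.25 without WT-1. For the other 7, 22 of the values changed sign, and their estimates were close to 0. *Csf1r* became 0.0015 with upper quartile rescaling, 0.0021 with quantile normalization and 0.036 without both libraries numbered 3, where *C1qa* became 0.034 and *C1qc* 0.0055. Leaving out single libraries, the log2 change ranged from -0.099 to 0.13 for *Csf1r*, from -0.22 to 0.076 for *Cx3cr1*, from -0.069 to 0.17 for *P2ry12*, from -0.047 to 0.12 for *Tmem119*, from -0.10 to 0.027 for *C1qa*, from -0.012 to 0.078 for *C1qb* and from -0.10 to 0.096 for *C1qc*. The median of the 9 stayed between -0.047 and 0.088, within the spread between replicates of 0.12. The number of members lower in *Shank3* TG ranged from 1 to 8 with each library left out and was 2 without both libraries numbered 3. Over all genes, the count of adjusted limma p-values under 0.05 was 0, but 1 with the robust option, 1 with the replicate block, 1 without both libraries numbered 3, 26 with the empirical null, and 0 to 1 with each library left out. The log2 change of *Shank3* was 1.18 (adjusted limma p-value 0.0643), and the same 1.18 passed the threshold with the robust option, the replicate block and the empirical null, as did 1.14 without both libraries numbered 3. With each library left out it ranged from 1.09 to 1.24, and it passed without WT-3 alone. The replicate block changed no call of a member. For the blood leukocyte list, a mean of at least 50 left no gene to test. With 3 pools per genotype, differences inside the intervals given were not excluded.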

Other observations

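Cells of the blood and of the choroid plexus, which the tissue could also hold, were read from lists of their genes. Of 9 blood leukocyte genes, 8 were in the table and 6 were tested, 3 higher and 3 lower in *Shank3* TG. Their normalized counts summed to 241, 108 and 106 in *Shank3* TG and to 134, 110.4 and 213 in WT, so that TG-1 and WT-3 were the highest. Of 5 genes of red blood cells, which make hemoglobin and heme, all were higher in *Shank3* TG with a median log2 change of 0.17, and the median was -0.067 without TG-3 and -0.077 without WT-2. Their summed ranges overlapped (6909 to 10646 in *Shank3* TG and 6013 to 9643 in WT). The unadjusted limma p-value was under 0.05 for 1 of the 5 genes, against 2.01% of all tested genes. The heme synthesis gene *Alas2* had normalized counts of 122, 109.8 and 104 in the TG libraries and of 91.0, 85.1 and 84.7 in the WT libraries (unadjusted limma p-value 0.0354, adjusted 1). Of 5 choroid plexus genes, 3 were higher and 2 lower in *Shank3* TG, with a median log2 change of 0.50, which was 0.022 without WT-2 and 1.18 with a filter at a mean of 50. The sum of these 5 genes was 570.1 in TG-3 against 96.4 to 234 in the other 5 libraries, most of it from *Ttr*, the plexus transport protein for thyroxine. *Ttr* had normalized counts of 127, 22.9 and 445 in the TG libraries and of 14.3, 12.6 and 41.7 in the WT libraries. TG was above WT for every number while the genotypes overlapped, with a log2 change of 2.42 (unadjusted limma p-value 0.0382, adjusted 1, and 0.000518 unadjusted and 0.35 adjusted with the replicate block).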
